A study of Mus musculus with 4 samples.

Results

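Glycolysis splits glucose into pyruvate in the cytosol, and lactate dehydrogenase turns pyruvate into lactate, a step that lets the pathway run when oxygen or mitochondrial capacity is short. In normal oxygen the prolyl hydroxylases of the Egln family mark the hypoxia-inducible factors Hif1a and Epas1 for destruction, and in low oxygen these factors persist and raise the transcription of glucose transporters, most glycolytic enzymes and a wider set of hypoxia response genes. In brain, astrocytes are known as a strongly glycolytic cell type, and neutrophils and activated macrophages are known to lean on glycolysis. The 37 genes of this programme described here were chosen by symbol, with no expression value in the rule. They were 18 glycolytic enzymes, 7 genes of transport and control of flux, 4 genes for hypoxia-inducible factors and their prolyl hydroxylases, and 8 hypoxia response targets. All 37 were found among the 31205 different gene symbols of the files, and all passed the filter on low counts in microglia and in monocyte-macrophages, against 29 of 37 in neutrophils.

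The data were 4 single-cell libraries of mouse brain made with BD Rhapsody, a microwell method in which the 3′ end of mRNA receives the barcode of its cell and a molecular tag (unique molecular identifier, UMI). The tissue was the hemisphere on the injured side, taken 3 days after tMCAO (transient occlusion of the middle cerebral artery, a stroke model in which blood flow is stopped and then restored), and cells were loaded with no enrichment. The 2 Flox control libraries came from Htr2b flox/flox littermates, and the 2 Ms4a3 cKO libraries came from adult mice described as Htr2b ERCre with Ms4a3-Cre, a driver active in granulocyte and monocyte progenitors. Htr2b encodes a serotonin receptor. Sexes were male and/or female, the sample labels name the strain as C57B6, and tamoxifen with a washout of 3 days preceded surgery. Which Cre allele acted, and whether tamoxifen was given to both groups alike, cannot be read from the labels. The labels also do not say whether the libraries came from separate animals, so p-values measure only the spread between these libraries, which may be technical.

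The files held 63181 barcodes and between 77580518 and 105566650 UMIs per library, and 59685 cells were kept. Across libraries 15 barcode sequences recurred. Cells fell into 27 clusters, and 25 of these were named as 14 classes from marker genes, so that microglia means microglia-like and so on. Between 3.06% and 6.34% of the cells of a library stayed unnamed. Htr2b had 3499 and 4528 UMIs in monocyte-macrophages of the control libraries and 215 and 319 in those of the cKO libraries. Scaled to a total of 1000000 UMIs of the class per library, these were 83.6 and 133 against 10.5 and 25.8. In microglia Htr2b had 1836, 3637, 3085 and 3724 UMIs, or 46.2, 109, 101 and 85.9 on that scale. The libraries stood apart from each other within a class: cluster 5 held most monocyte-macrophages of Flox control 1 (3501 cells), cluster 4 most of Flox control 2 (3332 cells), and cluster 6 most of cKO 1 (1783 cells) and cKO 2 (1067 cells). In cluster 5 border macrophage markers scored higher than monocyte-macrophage markers, although its top 10 genes held Ms4a7 and no border macrophage marker. Cluster 7 of the microglia was likewise mostly from Flox control 1 (2414 of its cells, against 297, 61 and 202). Levels are in CPM, a gene's UMIs divided by all UMIs of the class in that library and scaled to a total of 1000000, and library values are given in the order Flox control 1, Flox control 2, cKO 1, cKO 2. In such sums, fewer cells of a state within the class and less RNA per cell cannot be told apart.

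Promoter sequence is shown for 5 members that recur in the results, because the hypoxia-inducible factors bind a short element, the hypoxia response element, whose core is ACGTG or GCGTG. Both words were searched on both strands, so that a palindromic CACGTG counts as overlapping matches. The RefSeq table of GRCm38.p6 held 33 of the 37 members, in 46 windows of the 250 bases before a transcription start. A match was present in 38 of these windows (82.6%) and in at least 1 window of 30 of the 33 genes, against 38.6% of all 32851 windows of the same length. Windows of the same gene can overlap, as in Eno1, and count separately. Both words hold the pair CG, and the background was not matched for base content, so these shares are a description only. P4ha1 (a collagen prolyl hydroxylase subunit) held 3 matches, Bnip3 (a mitophagy receptor) 5, Ldha (a lactate dehydrogenase subunit, first of its listed windows) 5 and Ankrd37 (an ankyrin repeat protein) 4, and Tpi1 (triosephosphate isomerase) held 0. The windows are given 5′ to 3′ toward the start, with matches in capitals.
P4ha1, chr10:59323046-59323295 (+ strand): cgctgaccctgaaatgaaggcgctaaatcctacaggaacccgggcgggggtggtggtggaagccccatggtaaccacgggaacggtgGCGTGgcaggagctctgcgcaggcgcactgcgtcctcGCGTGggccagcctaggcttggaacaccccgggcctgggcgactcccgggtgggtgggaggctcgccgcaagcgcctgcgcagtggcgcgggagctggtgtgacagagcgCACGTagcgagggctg
Bnip3, chr7:138909507-138909756 (- strand): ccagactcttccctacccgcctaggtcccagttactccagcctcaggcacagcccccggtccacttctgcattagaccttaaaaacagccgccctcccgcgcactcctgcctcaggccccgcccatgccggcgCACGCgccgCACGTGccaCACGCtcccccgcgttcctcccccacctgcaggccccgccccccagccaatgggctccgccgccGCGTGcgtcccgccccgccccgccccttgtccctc
Ldha, chr7:46845554-46845803 (+ strand): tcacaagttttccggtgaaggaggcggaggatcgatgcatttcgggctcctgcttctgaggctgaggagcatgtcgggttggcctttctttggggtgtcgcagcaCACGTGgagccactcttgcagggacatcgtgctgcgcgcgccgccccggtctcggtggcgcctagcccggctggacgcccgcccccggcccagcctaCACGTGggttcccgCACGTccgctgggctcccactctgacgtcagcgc
Ankrd37, chr8:45999851-46000100 (- strand): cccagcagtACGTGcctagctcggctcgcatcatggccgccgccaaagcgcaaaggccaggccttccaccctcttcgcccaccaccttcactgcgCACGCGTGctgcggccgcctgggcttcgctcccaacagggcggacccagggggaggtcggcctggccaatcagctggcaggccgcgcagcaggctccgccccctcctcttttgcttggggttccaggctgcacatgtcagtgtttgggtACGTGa
Tpi1, chr6:124814159-124814408 (- strand): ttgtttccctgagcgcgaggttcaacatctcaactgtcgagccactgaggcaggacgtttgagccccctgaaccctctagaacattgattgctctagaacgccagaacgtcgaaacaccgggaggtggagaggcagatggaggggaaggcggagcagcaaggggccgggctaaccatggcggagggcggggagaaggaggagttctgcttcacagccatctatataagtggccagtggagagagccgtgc
A match describes these letters and is no evidence of binding. The promoters of Slc2a3, Bnip3l, Epas1 and Ndrg1 were not matched in the table.

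The glycolytic programme was unevenly spread over the 14 classes. The summed level of the 18 enzymes was high in choroid plexus (3944 ± 1031 CPM, SD, n = 4 libraries) and astrocytes (3919 ± 71.7 CPM), which did not differ beyond their spread, and lowest in neuroblasts (712 ± 46.98 CPM), a range of 5.54-fold between class means. The injury-associated myeloid classes lay between these, with monocyte-macrophages at 2392 ± 185 CPM, neutrophils at 2226 ± 479 CPM and microglia at 1926 ± 217 CPM. By class mean the other roles had other leaders: endothelial cells were highest for the genes of transport and flux (944 ± 522 CPM), for the factors and hydroxylases (2982 ± 665 CPM) and for the hypoxia targets (1180 ± 319.7 CPM). Each lead overlapped with the next class. For transport and flux the endothelial range was 531 to 1640 CPM and that of neutrophils 402 to 852 CPM. For the factors it was 2187 to 3816 CPM, against 2250 to 2408 CPM in mural cells. For the targets it was 870 to 1610 CPM, against 787 to 1308 CPM in oligodendrocytes. By single genes, choroid plexus was the highest class for 10 members, endothelial cells and neutrophils for 7 each, microglia for 4, astrocytes and fibroblasts for 3 each, oligodendrocytes for 2 and monocyte-macrophages for 1. In 9 of the 37 the 4 libraries of the highest class lay clear of those of the next class, and in the other 28 the ranges overlapped. Over all 15015 genes with a mean of at least 5 CPM in their highest class, 22% lay clear of the next, a share close to that of the members. Classes were made by clustering these same cells, with the members left out of the genes that were clustered on, so levels by class are a description with no test.

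**Figure D1:**
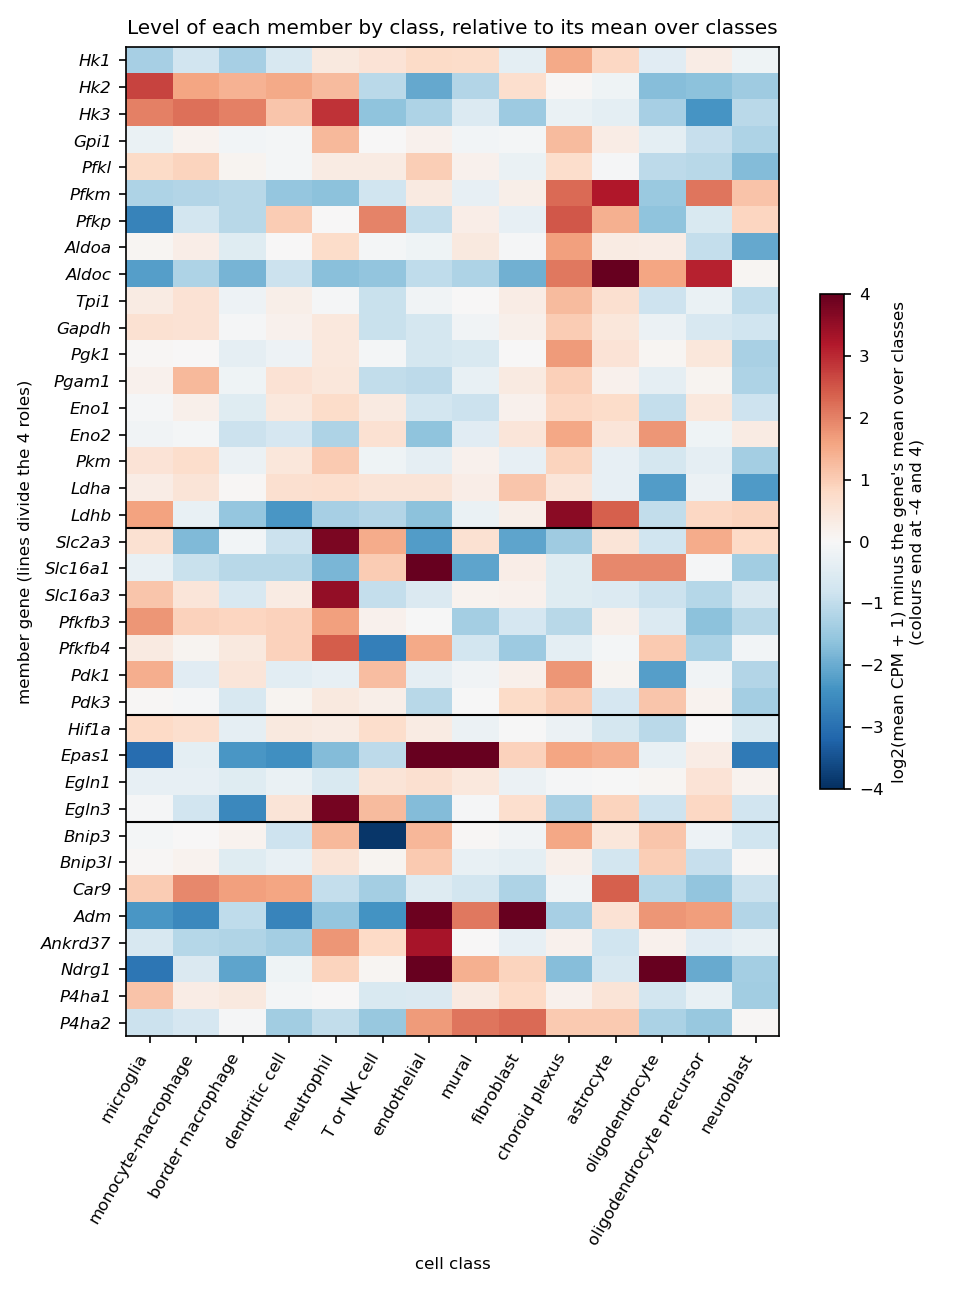
Mean level of each of the 37 members (rows, in their 4 roles) in each of the 14 classes (columns), as log2(mean CPM + 1) over the 4 libraries minus the gene's own mean over classes; red is above and blue below that mean, and colours end at 4 log2 units to either side. Astrocytes stand out for Aldoc, endothelial and mural cells for Epas1, neutrophils for Slc2a3, Slc16a3 and Egln3, and microglia for Hk2.

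Hexokinase, the enzyme that traps glucose in the cell, was divided between isozymes by class. Hk2, the inducible form, stood at 307, 239.96, 175 and 208 CPM in microglia and at 122, 107, 92.3 and 105 CPM in monocyte-macrophages, and every microglial library was above every monocyte-macrophage library. It made up 83.6% of hexokinase UMIs in microglia, 65.5% in monocyte-macrophages, 43.6% in neutrophils and 9.71% in endothelial cells (means of 4 libraries). Hk1, the widely expressed form, led in choroid plexus (165, 101, 119.6 and 118 CPM) and made up 87.8% of the family in endothelial cells. Hk3, a form of myeloid cells, was highest in neutrophils (71.97, 39.004, 43.5 and 46.1 CPM), overlapping with monocyte-macrophages (22.9, 40.5, 31.7 and 27.7 CPM), and made up 26.6% of neutrophil hexokinase. By cells, 59.5 to 79.1% of microglia in a library had a UMI of Hk2 at a median depth of 5043 to 6450 UMIs, against 0.685 to 3.94% of endothelial cells at 2149 to 3222 UMIs. With every cell thinned to 1000 UMIs, which left out 16 to 41 microglia and 8 to 240 endothelial cells per library, the shares were 17.1 to 27.6% and 0.533 to 1.54%. Microglia were above endothelial cells on both scales. For Hk3, 16.8 to 24.3% of monocyte-macrophages and 4.58 to 10.6% of neutrophils had a UMI, which became 2.48 to 3.73% and 2.84 to 5.73% after thinning, against at most 0.955% of endothelial cells unthinned. The unthinned order of monocyte-macrophages and neutrophils went against their CPM, and no order is read from it.

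Further down the pathway the aldolases, which split the hexose, separated astrocytes from all other classes. Aldoc, the brain form, stood at 1603, 1684, 2083 and 2266 CPM in astrocytes, and the class named oligodendrocyte precursors was next at 37.8, 104, 188 and 308 CPM. That class was cluster 25, with 100, 188, 15 and 76 cells, in which markers of newly forming oligodendrocytes scored above those of precursors. Its precursor markers summed to 2559, 4380.5, 5071 and 7324 CPM, its oligodendrocyte markers to 25599, 2731, 3095 and 4319 CPM and its astrocyte markers to 543, 3082, 3711 and 4149 CPM. The astrocyte markers had the same order of libraries as Aldoc there, and their part in it was not tested. Aldoc was 92.4% of aldolase UMIs in astrocytes, where 65.9 to 75.4% of cells had a UMI (62.8 to 68.6% thinned, with 32 to 281 cells left out per library) at median depths of 1439 to 2881 UMIs, against 0.562 to 2.85% of microglia. Aldoa, the general form, was highest in choroid plexus (692, 295, 272 and 255 CPM) and then in neutrophils (329, 211, 169.99 and 97.6 CPM), and in both classes Flox control 1 was well above the other 3 libraries. The phosphofructokinases, which commit sugar to glycolysis, also split: Pfkm stood at 92.4, 93.3, 111 and 117 CPM in astrocytes, above every library of choroid plexus (83.6, 52.98, 38.3 and 35.4 CPM), and was 54.2% of the family there. Pfkp took 90.3% of the family in T or NK cells, though 139, 159, 220.1 and 200.4 CPM in choroid plexus was its highest level, and Pfkl took 59.9% in microglia at a level of 10.8 to 12.9 CPM. Gpi1, which turns glucose phosphate into fructose phosphate, was highest in neutrophils (46.9, 30.3, 75.004 and 88.7 CPM).

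After the aldolase step, choroid plexus, monocyte-macrophages and neutrophils led. Pgam1, phosphoglycerate mutase, was highest in monocyte-macrophages (1144, 1114, 877 and 970.2 CPM) and overlapped with choroid plexus (1201, 784, 536 and 715 CPM). Pgk1, phosphoglycerate kinase, stood at 1522, 916, 647 and 841 CPM in choroid plexus and at 653, 467, 373 and 265 CPM in astrocytes. Tpi1 stood at 189.97, 86.3, 51.4 and 45.6 CPM in choroid plexus and at 92.4, 63.05, 45.7 and 37.9 CPM in astrocytes, and Flox control 1 was the highest library for it in 14 of 14 classes. Pkm, the pyruvate kinase of most tissues, ranged from 246 to 416 CPM in neutrophils to 50.05 to 73.9 CPM in neuroblasts. Of the enolases, Eno2 held 71.9% of enolase UMIs in oligodendrocytes but at a level of only 8.26 to 16.1 CPM, and Eno1 was at most 33.3 CPM in any class and library. Gapdh had class means between 22.4 and 85.6 CPM. In GENCODE transcripts, 65.6% of the 50-base words near the 3′ ends of Gapdh also occurred in 1 or more of 217 other genes, and 65.9% of those of Eno1 in 8 other genes, so reads of these genes could be split or dropped in counting and their levels are uncertain. The corresponding shares were 28.9% for Bnip3, 27.3% for Ldhb, 25.04% for Gpi1, 24.1% for Pgk1, 18.03% for Pkm, 11.5% for Ldha, 10.6% for Tpi1, 9.48% for Aldoa and 9.01% for Pfkm, and 0 for the other members.

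The subunits of lactate dehydrogenase differed between classes. Ldhb, the subunit associated with lactate use, stood at 534, 478, 451 and 415 CPM in choroid plexus, at 187, 218, 186 and 216 CPM in astrocytes and at 138, 121, 96.9 and 111 CPM in microglia, 3 ranges that did not overlap. It was 65.1% of lactate dehydrogenase UMIs in choroid plexus (64.5 to 65.97% over libraries), 59.6% in astrocytes and 34.3% in microglia, but 10.8% in monocyte-macrophages and 5.58% in neutrophils. The share was also low in classes that live in brain tissue, with 4.68% in endothelial cells, 6.02% in border macrophages and 11.1% in fibroblasts. Ldha, the subunit associated with lactate production, was highest in fibroblasts (326, 439, 489 and 292 CPM) and neutrophils (338, 246, 355 and 213 CPM), which overlapped. Of the monocarboxylate transporters, which carry lactate across the membrane, Slc16a1 stood at 1520.4, 861, 405 and 404 CPM in endothelial cells, above every astrocyte library (223, 194, 186 and 96.4 CPM). Its endothelial level in the control libraries lay above that in both cKO libraries. Because each mRNA is tagged once near its 3′ end, UMI shares within a family do not scale with transcript length.

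Neutrophils were the highest class for the transporters Slc2a3 and Slc16a3 and the hydroxylase Egln3, while the transporter Slc16a1 was low there (0, 21.7, 14.02 and 12.4 CPM). Slc2a3, the high-affinity glucose transporter GLUT3, stood at 363, 142, 227 and 243 CPM in neutrophils, and the next class, the precursors of cluster 25, at 14.3, 55.7, 66.98 and 58.9 CPM. Slc16a3, the lactate exporter MCT4, stood at 21.9, 18.8, 28.4 and 28.4 CPM in neutrophils against 4.23, 5.06, 2.95 and 3.02 CPM in microglia. It took 70.7% of the UMIs of the pair Slc16a1 and Slc16a3 as a mean of 4 libraries. That share rested on few UMIs in the controls, where 13 UMIs were 18.8 CPM in Flox control 2. It was not shared by all libraries: Slc16a1 was at 0 in Flox control 1 and above Slc16a3 in Flox control 2. Neither Slc2a3 nor Slc16a3 overlapped with any other class. Egln3, the hydroxylase that is itself a hypoxia target, stood at 169, 142, 88.7 and 70.95 CPM in neutrophils and at 34.03, 4.48, 19.7 and 18.8 CPM in T or NK cells, the next class, again with no overlap. It took 67.4% of the UMIs of Egln1 and Egln3 in neutrophils, while Egln1, the main oxygen sensor, was most even of the 4 in this role, with class means between 52.9 and 126 CPM. A UMI of Egln3 was found in 11.8 to 16.9% of neutrophils (6.23 to 12.7% thinned), at median depths of 1286 to 1961 UMIs, and in at most 0.868% of endothelial cells of a library. Thinning left out 3 to 115 neutrophils per library. Pfkfb4, a kinase that sets the level of the activator of phosphofructokinase, was also highest in neutrophils (50.1, 31.8, 64.1 and 31.9 CPM). Its second place in endothelial cells rested on Flox control 2, where 261 of 266 UMIs came from 1 cell. Neutrophil values rest on 160, 502, 1266 and 289 cells.

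**Figure D2:**
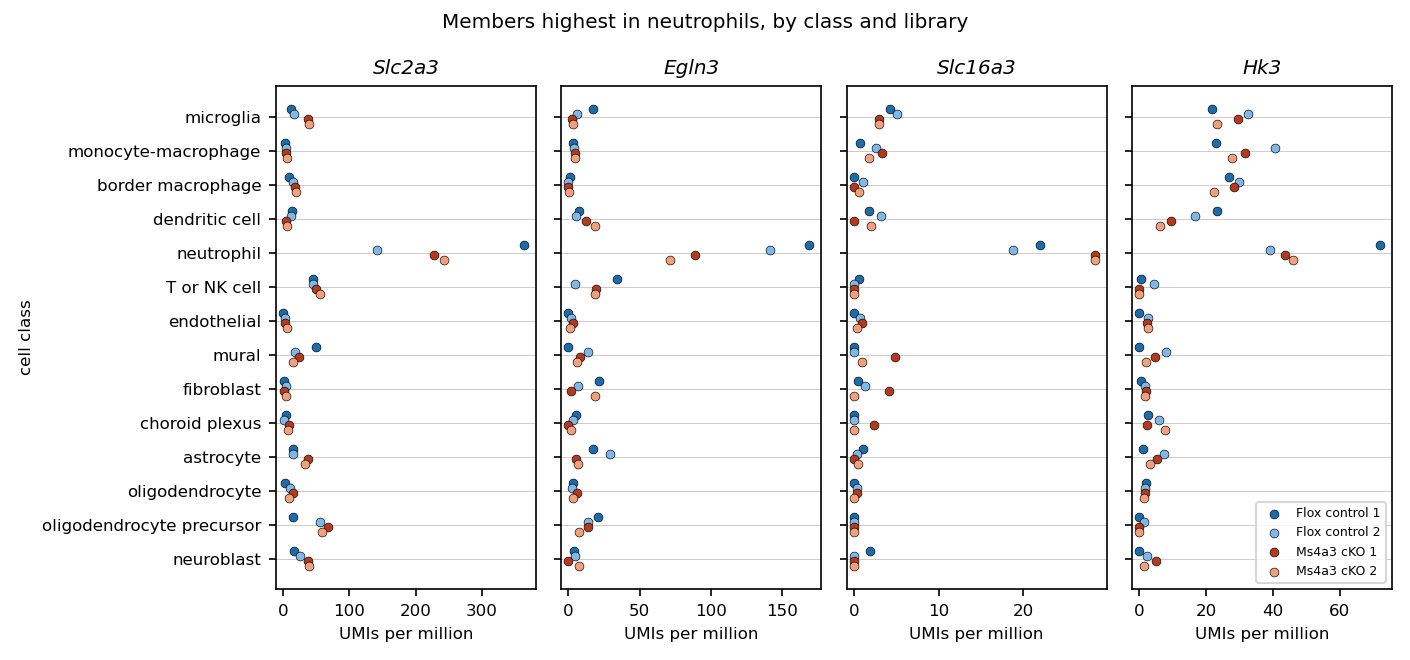
Level of Slc2a3, Egln3, Slc16a3 and Hk3 (panels) in each class, in CPM; each point is 1 library, blue for Flox control and red for Ms4a3 cKO. The 4 neutrophil points of Slc2a3, Egln3 and Slc16a3 lie above all points of the other classes, and those of Hk3 overlap with monocyte-macrophages.

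By class mean, endothelial cells led for the summed factors and the summed targets, with ranges that overlapped with the next class. Epas1, the hypoxia-inducible factor HIF-2 alpha known for its endothelial expression, stood at 2513, 1857, 2591 and 3479 CPM in endothelial cells and 2077, 2037, 2031 and 2117 CPM in mural cells, and choroid plexus was next at 274, 194, 220.1 and 207 CPM, clear of both. It took 91.1% of the UMIs of Hif1a and Epas1 in endothelial cells. Hif1a, the more widely expressed factor, was highest in microglia (448, 335, 305 and 291 CPM) but overlapped with T or NK cells and monocyte-macrophages (245, 289, 398 and 328 CPM). Adm, the vasodilator adrenomedullin, stood at 21.8, 117, 459.6 and 447 CPM in fibroblasts and 159, 50.2, 120.5 and 178 CPM in endothelial cells and was under 1 CPM in every microglial library. In fibroblasts both cKO libraries were above both controls for it. Fibroblast markers there summed to 43074, 37080, 15216 and 17991 CPM and monocyte-macrophage markers to 5319, 5757, 2747 and 2129.6 CPM, lower in both cKO libraries, and their part in the level of Adm was not tested. Ndrg1, a gene of stress response and myelin maintenance, stood at 466, 215, 209 and 328 CPM in endothelial cells and 561, 250.01, 197 and 197 CPM in oligodendrocytes. Bnip3l, a mitophagy receptor, was high in these same classes (587, 475, 519 and 495 CPM and 584, 654, 369 and 401 CPM), and Bnip3 in choroid plexus (195, 86.3, 149.5 and 145 CPM). Ankrd37 was highest in endothelial cells (111, 26.8, 17.9 and 28.1 CPM), where Flox control 1 stood above the rest. P4ha1 was highest in microglia (259.7, 165, 118 and 118 CPM) and fibroblasts (225, 128, 95.2 and 74.2 CPM), while P4ha2, of the same family, stayed under 25 CPM in each class and library and was highest in fibroblasts (6.64, 18.3, 6.21 and 20.2 CPM). Car9, a surface carbonic anhydrase, had its highest mean in astrocytes through Flox control 1 alone (40.6, 3.73, 7.95 and 5.94 CPM), and monocyte-macrophages were next (10.2, 12.8, 7.87 and 9.78 CPM). Pdk1, a pyruvate dehydrogenase kinase, stood at 147, 104, 106.5 and 99.8 CPM in choroid plexus and 107, 90.5, 82.7 and 91.3 CPM in microglia, and Pdk3, of the same family, at 106.1, 95.6, 41.1 and 62.4 CPM in oligodendrocytes.

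A stated aim of the study was to tell microglia of the brain from macrophages that enter from blood, and several members differed between these classes in all libraries. Of 31 members with a mean of at least 5 CPM over both classes, 7 were higher in all 4 monocyte-macrophage libraries than in any microglial library and 6 were lower. Over all 9185 genes with that mean, 12.9% were higher without overlap and 21.2% lower, so 7 of 31 is a larger share than this background and 6 of 31 is close to it. Lower in monocyte-macrophages were Hk2 (106.4 against 232 CPM, log2 ratio -1.13), Ldhb (30.7 against 117 CPM, log2 ratio -1.92) and Slc2a3 (4.28 against 26.5 CPM, log2 ratio -2.63). With them were Pdk1 (24.2 against 92.96 CPM, log2 ratio -1.94), Pfkfb3, the inducible kinase that speeds phosphofructokinase (152 against 272 CPM, log2 ratio -0.85), and Slc16a1 (23.8 against 36.4 CPM, log2 ratio -0.61). Higher in monocyte-macrophages were Pfkp (18.7 against 4.10 CPM, log2 ratio 2.19), Pgam1 (1026 against 471 CPM, log2 ratio 1.12) and Epas1 (56.5 against 8.17 CPM, log2 ratio 2.79). Ndrg1 (10.7 against 1.36 CPM, log2 ratio 2.97), Car9 (10.2 against 4.97 CPM, log2 ratio 1.03), Hk1 (24.98 against 16.8 CPM, log2 ratio 0.57) and Gpi1 (26.01 against 19.4 CPM, log2 ratio 0.42) completed the group. The classes thus differed in isozyme makeup at 3 steps, hexokinase, phosphofructokinase and lactate dehydrogenase. The summed enzymes stood at 2132, 2096, 1741 and 1737 CPM in microglia and 2593, 2505, 2252 and 2218 CPM in monocyte-macrophages, higher in every library of the latter. The counts of 7 and 6 were the same without clusters 5 and 7. Not every class difference held in each monocyte-macrophage cluster. In cluster 15, with Ccr2, Plac8 and Chil3 among its top genes, Pgam1 and Epas1 overlapped with the microglial class, while Pfkp stayed above it. The levels of that cluster are given below.

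Within microglia the members varied by cluster in a way shared by the libraries. Clusters 0 and 3, whose cells had median depths of 4046.5 and 4028 UMIs, held more Hk2 and a lower enzyme sum than clusters 1 and 10, at 9363 and 12072 UMIs. Hk2 stood at 430.1, 424, 262 and 296 CPM in cluster 0 and 438, 402, 273 and 323 CPM in cluster 3, against 147, 122, 76.1 and 102.6 CPM in cluster 10, and no library of the former overlapped with the latter. Pgam1 ran the other way, with 323, 224, 126 and 158 CPM in cluster 0 against 619.99, 690.2, 557 and 559 CPM in cluster 1. Ldha also ran upward with 156, 96.4, 95.6 and 74.6 CPM in cluster 0 and 299, 305, 307 and 259 CPM in cluster 10. The summed enzymes were 1761, 1329, 986 and 1047 CPM in cluster 0 and 1700.3, 1242, 1130.1 and 1091 CPM in cluster 3, against 2506, 2442, 2087 and 2024 CPM in cluster 1 and 2376, 2349, 2092 and 1995 CPM in cluster 10. The depth of a cluster's cells moved with these levels. So did 9 dissociation response genes, which summed to 20302, 19332, 22203 and 17587 CPM in cluster 0 and 17624, 17801, 16786 and 15895 CPM in cluster 3, against 7152, 8294, 6226 and 7168 CPM in cluster 1 and 7586, 8055, 4995 and 5960.2 CPM in cluster 10. Cluster 10 was the cycling cluster, with Mki67 and Top2a among its top genes, and 4 cycling markers summed to 3440.1, 3720.3, 3874 and 3958 CPM there against 25.2, 45.5, 31.9 and 33.2 CPM in cluster 0 and 301, 232, 259 and 257 CPM in cluster 1. The part of depth and of these states in the levels was not tested. Among monocyte-macrophages, cluster 15 stood apart with Pfkp at 78.9, 49.7, 41.1 and 36.5 CPM, Slc16a3 at 6.57, 17.6, 9.04 and 13.02 CPM and Pgam1 at 427, 421, 544 and 591 CPM, against 10.8, 15.2, 22.3 and 18.5, 0.898, 2.38, 0.971 and 1.48 and 947, 1172, 1127 and 1179 CPM for the same genes in cluster 4. It held 87, 259, 995 and 164 cells, so cKO 1 gave most of it. Its 9 neutrophil markers summed to 263, 455, 5965 and 1542 CPM, against 395, 298, 226 and 261 CPM in cluster 4, and their part in its Slc16a3 was not tested.

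**Figure D3:**
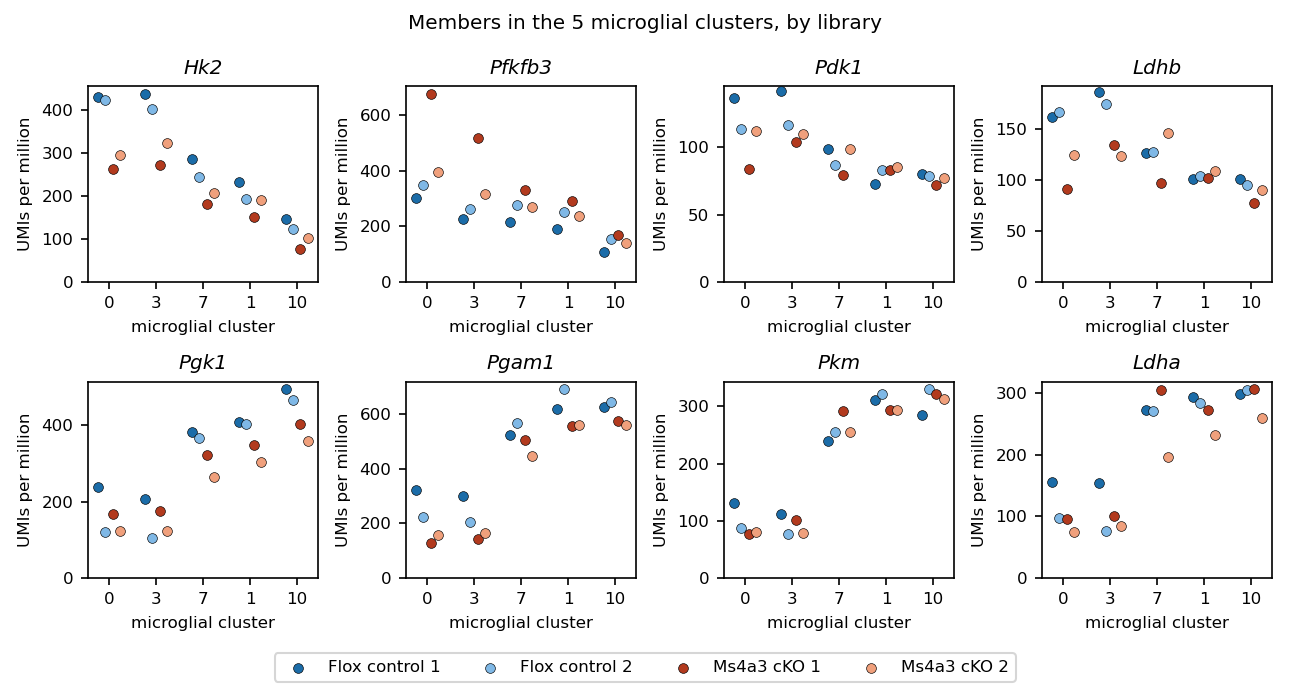
Level of 8 members (panels) in the 5 microglial clusters (x axis, ordered 0, 3, 7, 1, 10), in CPM; each point is 1 library, blue for Flox control and red for Ms4a3 cKO. Hk2 is highest in clusters 0 and 3 in every library, and Pgam1 and Ldha are higher in clusters 1 and 10 than in cluster 0.

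The main comparison of the study was cKO against control within a class. In microglia the enzyme Hk2, the aldolase Aldoa, Tpi1, Pgam1 and the target P4ha1 were lower in both cKO libraries, and the glucose transporter Slc2a3 was higher, but no member passed edgeR's quasi-likelihood test over all genes (0 of 37 at a Benjamini-Hochberg adjusted p under 0.05, 0% of 14422 genes). At an unadjusted p under 0.05, 2 members were higher in cKO and 10 were lower, against 5.13% of genes higher and 5.46% lower, so the share of members that were lower was above this background. DESeq2 called 2 members, Slc2a3 and Egln3, beside 1.87% of all genes. The median log2 fold change (cKO over control) was -0.16 over the members and -0.0014 over all genes. On library totals with no scaling factor the median of all genes was 0.14, that of the members -0.03, and 21 of 37 members were negative in place of 25. Without Flox control 2, edgeR called 20 members (5 higher, 15 lower) but also 32.1% of all genes, and without Flox control 1 it called 1, Slc2a3, beside 0.43% of genes. With a library left out, the single library of its group is assumed to vary like the other group.

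Slc2a3 was the member with the smallest p in microglia. It stood at 11.96, 16.4, 37.9 and 39.8 CPM, with both cKO libraries above both controls (log2 fold change 1.32, SE 0.17, adjusted p = 0.312 by edgeR). Its adjusted p was 0.0272 without Flox control 1, 0.00112 without Flox control 2 and 2.38e-06 by DESeq2. It was higher in both cKO libraries in 5 of 5 microglial clusters, which divide the cells of the same libraries and are not independent. Adm was the other member that was higher, on few counts (9, 15, 30 and 42 UMIs, or 0.227, 0.449, 0.984 and 0.969 CPM, log2 fold change 1.41, SE 0.48, adjusted p = 0.467).

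Egln3 stood at 17.1, 6.19, 2.26 and 2.999 CPM in microglia, lower in both cKO libraries, and Flox control 1 stood far above Flox control 2 (log2 fold change -2.34, SE 0.60, adjusted p = 0.465 by edgeR). With each library left out in turn its log2 fold change ran from -2.96 to -1.26, smallest in size without Flox control 1. P4ha1 stood at 259.7, 165, 118 and 118 CPM and the cKO libraries were close to each other (log2 fold change -1.02, SE 0.30, adjusted p = 0.465). For the enzymes, Tpi1 stood at 79.7, 47.1, 35.4 and 31.7 CPM (log2 fold change -1.09, SE 0.34, adjusted p = 0.465) and Aldoa at 190.1, 133, 96.95 and 88.7 CPM (log2 fold change -0.96, SE 0.26, adjusted p = 0.465). In these 4 genes the order from Flox control 1 through Flox control 2 to the cKO libraries was the same, and the controls did not overlap with the cKO libraries. Hk2 stood at 307, 239.96, 175 and 208 CPM (log2 fold change -0.67, SE 0.23, adjusted p = 0.470) and Pgam1 at 478, 543, 421 and 441 CPM (log2 fold change -0.38, SE 0.13, adjusted p = 0.465). Bnip3 stood at 62.98, 49.2, 32.3 and 40.04 CPM (log2 fold change -0.79, SE 0.24, adjusted p = 0.465), and Slc16a3 at 4.23, 5.06, 2.95 and 3.02 CPM (log2 fold change -0.77, SE 0.25, adjusted p = 0.465). Hk2, Aldoa, Tpi1, Pgam1 and P4ha1 were lower in both cKO libraries in 5 of 5 microglial clusters, and Egln3, Bnip3 and Hif1a in 4 of 5. On the other side Slc2a3 and Epas1 were higher in 5 of 5 and Hk1 in 4 of 5. The clusters divide the cells of the same 4 libraries, so these counts are not independent of the class values. The same count over all genes is not given, so they are a description only. Over the class, 8 of 27 members with a mean of at least 5 CPM were higher in both cKO libraries and 13 were lower, against 35.4% and 17.1% of genes on this unscaled CPM, so the share that was higher was under the background and the share that was lower above it.

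**Figure D4:**
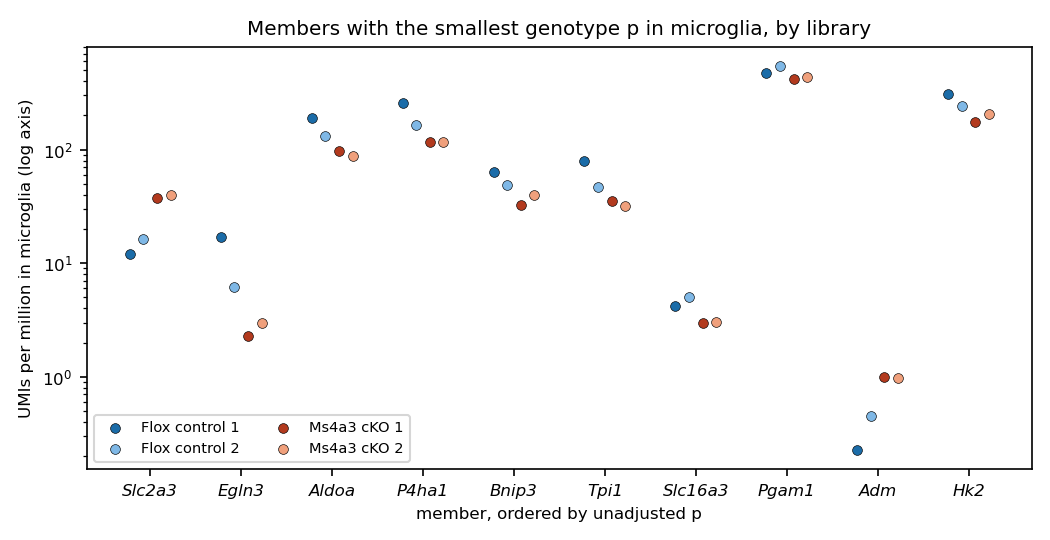
Level in microglia of the 10 members with the smallest unadjusted p for genotype, in CPM on a log axis; each point is 1 library, blue for Flox control and red for Ms4a3 cKO. Slc2a3 and Adm are higher and the other 8 lower in both cKO libraries.

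Other values of the microglial libraries also differed between libraries. The summed level of 10 microglial markers was 29194, 19815, 15905 and 16918 CPM, with 9 of 10 lower in both cKO libraries, and 9 dissociation response genes summed to 12295, 11170, 10792 and 9737 CPM. None of the 13 monocyte-macrophage markers was at 0 in microglia, and their sum was 539, 1023, 1479 and 999.6 CPM. Their part in the levels of the members was not tested.

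In monocyte-macrophages the members that stood furthest apart were lower in cKO: the 2 prolyl hydroxylase subunits of collagen and Epas1. Again 0 of 37 members passed edgeR's test (0% of 13228 genes), and 1 member was higher and 3 were lower at an unadjusted p under 0.05, against 5.72% and 6.41% of all genes. DESeq2 called 1 member, Epas1 (adjusted p = 0.0164), beside 3.74% of genes. Without Flox control 2 edgeR called 9 members, all lower, beside 32.4% of genes, a larger share than that of the members, and without Flox control 1 (1.23% of genes) or without cluster 5 it called 0. Epas1 stood at 96.5, 65.8, 22.8 and 41.2 CPM (log2 fold change -1.56, SE 0.43, adjusted p = 0.378 by edgeR). P4ha1 stood at 135, 101, 69.1 and 63.2 CPM (log2 fold change -1.04, SE 0.29, adjusted p = 0.378). P4ha2 rested on 55, 42, 8 and 2 UMIs, or 1.31, 1.23, 0.391 and 0.162 CPM (log2 fold change -2.30, SE 0.62, adjusted p = 0.365), and its log2 fold change ran from -3.13 to -1.87 with each library left out, largest in size without cKO 1. Pfkp was the member that was higher, with 11.3, 16.6, 26.4 and 20.5 CPM (log2 fold change 0.61, SE 0.23, adjusted p = 0.405). In each of these 4 genes the control and cKO libraries did not overlap. The median log2 fold change was -0.06 over the members and -0.02 over all genes, and with no scaling factor it was 0.09 and 0.14, with 15 of 37 members negative in place of 20, so the sign of the members' median was not fixed. On unscaled CPM 8 of 29 members were higher and 8 were lower in both cKO libraries, against 31.3% and 20.1% of genes.

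The clusters behind this class differed between libraries, so the same genes were read within the 2 clusters that had enough cells in all 4. P4ha1 was lower in both cKO libraries in both of them, with 161, 101, 91.3 and 63.8 CPM in cluster 4 and 138, 91.1, 82.7 and 55.998 CPM in cluster 15. Epas1 was lower in cluster 4 (54.7, 70.2, 29.1 and 53.5 CPM), where cKO 2 was close to Flox control 1. In cluster 15 it was higher (6.57, 10.3, 12.9 and 19.5 CPM), but that cluster held 87 cells of Flox control 1. Its Epas1 in the controls rested on few UMIs, so the direction there is uncertain and was not clearly shared by both clusters. The direction of Pfkp over the class was not shared either. Pfkp was higher in both cKO libraries in cluster 4 and lower in both in cluster 15, at the levels given above. For P4ha2 the control and cKO libraries overlapped in both clusters. Monocyte-macrophage markers in this class summed to 3743, 7422, 22195 and 15331 CPM, with 11 of 13 higher in both cKO libraries, and microglial markers, none of them at 0, to 8884, 4557, 2720.5 and 3518 CPM. The 9 dissociation response genes summed to 3701, 4407, 5805 and 5399 CPM, with 7 of 9 higher in both cKO libraries, and the 4 cycling markers to 525, 64.99, 56.7 and 58.9 CPM, all 4 lower in both. The part of these lists in the levels of Epas1, P4ha1, P4ha2 and Pfkp was not tested.

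Neutrophils, the other class of the Ms4a3 lineage, had 29 members above the filter on low counts. Ankrd37, Ndrg1 and Egln3 were lower in both cKO libraries and Gpi1 was higher, but 0 of 29 passed edgeR's test (0% of 6525 genes) and DESeq2 called 0 (0.935% of genes). At an unadjusted p under 0.05, 1 member was higher and 3 were lower, against 3.31% and 3.69% of genes. Without Flox control 2 edgeR called 1 member, Ndrg1 (adjusted p = 0.0419), beside 1.02% of genes, and without Flox control 1 it called 0, beside 0.362%. Ankrd37 stood at 21.9, 28.9, 4.21 and 5.32 CPM (log2 fold change -2.45, SE 0.62, adjusted p = 0.391 by edgeR). For scale, 13 UMIs of Htr2b were 18.8 CPM in neutrophils of Flox control 2, 4 were 1.40 CPM in cKO 1 and 5 were 8.87 CPM in cKO 2. Ankrd37, and Ndrg1 in cKO 2, thus rested on few UMIs. Egln3 stood at 169, 142, 88.7 and 70.95 CPM (log2 fold change -0.98, SE 0.37, adjusted p = 0.661). Ndrg1 stood at 78.2, 26.002, 13.7 and 7.10 CPM, a spread of about 3-fold between the controls alone (log2 fold change -2.16, SE 0.76, adjusted p = 0.615), and its log2 fold change ran from -2.97 to -1.03 with each library left out, smallest in size without Flox control 1 and largest without cKO 1. Gpi1 ran the other way with 46.9, 30.3, 75.004 and 88.7 CPM (log2 fold change 1.08, SE 0.43, adjusted p = 0.701). On unscaled CPM 4 of 31 members were higher and 11 lower in both cKO libraries, against 17.2% and 15.2% of genes. The sum of 9 neutrophil markers was 81154, 17877, 64403 and 54137 CPM, lowest in Flox control 2, and 9 dissociation response genes summed to 12120, 14537, 8959 and 10326 CPM. The 13 monocyte-macrophage markers summed to 6152, 5715, 10632 and 14839 CPM in this class, with 7 of 13 higher in both cKO libraries. The part of these lists in the levels of the members was not tested.

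Whether the genotype difference itself differed between monocyte-macrophages and microglia was tested as an interaction with library as a block. No member passed edgeR's test (0 of 37, 0% of 14851 genes). At an unadjusted p under 0.05 there were 11 members, 9 with a larger value in monocyte-macrophages and 2 with a smaller, against 10.5% of genes in either direction. DESeq2 called 5 of 37, Bnip3, Epas1, Egln3, Hif1a and Slc2a3, beside 1.39% of genes, and edgeR without Flox control 2 called 7, beside 10.4% of genes. Bnip3 had the smallest p: it was lower in cKO microglia, as given above, and stood at 44.1, 43.1, 53.98 and 55.5 CPM in monocyte-macrophages, higher in both cKO libraries (difference of log2 fold changes 0.96, SE 0.15, adjusted p = 0.281 by edgeR). Hif1a had the same opposite directions, from 448, 335, 305 and 291 CPM in microglia to 245, 289, 398 and 328 CPM in monocyte-macrophages (difference 0.82, SE 0.20, adjusted p = 0.372 by edgeR). For Slc2a3 the difference was -1.04 (SE 0.18, adjusted p = 0.309 by edgeR). It stood at 3.13, 4.22, 4.45 and 5.34 CPM in monocyte-macrophages, so summed over the class its direction was the same as in microglia. Egln3 differed by 2.42 (SE 0.55, adjusted p = 0.355 by edgeR), with 3.23, 3.58, 4.55 and 4.53 CPM in monocyte-macrophages, where both cKO libraries were above both controls. That difference ran from 1.63 to 3.12 with each library left out, smallest without Flox control 1 and largest without Flox control 2. The directions over the class of monocyte-macrophages were not all found within its 2 clusters that had enough cells in every library. Slc2a3 and Egln3 were each higher in both cKO libraries in 0 of these clusters and lower in 1. Bnip3 and Hif1a were each higher in 1 and lower in 0. The values for Pfkp and Aldoa were 0.79 and 0.37 (SE 0.22 and 0.10, adjusted p = 0.393 for each by edgeR).

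In the 8 other classes with enough cells, 0 of 227 pairs of member and class passed edgeR's test, beside 0.0316% of all pairs of gene and class. At an unadjusted p under 0.05, 19 pairs were higher and 16 were lower, against 5.23% and 4.96% of all pairs, and both shares of members were above this background. DESeq2 called 6 pairs (1.46% of all pairs), and edgeR without Flox control 2 called 24 (8.01% of all pairs) and without Flox control 1 called 5 (1.94%). The 6 are named here after their values were seen. Pfkfb3 in border macrophages stood at 79.2, 100.5, 216 and 186 CPM, higher in both cKO libraries (log2 fold change 1.13, SE 0.19, adjusted p = 0.0908 by edgeR, adjusted p = 0.0234 by DESeq2). In that class border macrophage markers summed to 9113, 7349, 13151 and 12422 CPM, higher in both cKO libraries, and microglial markers to 5169, 4996, 3324 and 3882 CPM, lower in both, and their part in Pfkfb3 was not tested. Adm in fibroblasts, given above, was higher in both cKO libraries (log2 fold change 2.61, SE 0.72, adjusted p = 0.341 by edgeR, 0.00683 by DESeq2). Its log2 fold change ran from 1.88 to 4.19 with each library left out, smallest without Flox control 1 and largest without Flox control 2, and the marker sums of that class are given with its levels. Slc16a1 in endothelial cells, also given above, was lower in both cKO libraries (log2 fold change -1.61, SE 0.35, adjusted p = 0.539 by edgeR, 0.00697 by DESeq2). The other 3 were in oligodendrocytes: Aldoc at 3.37, 19.7, 93.97 and 105.8 CPM (log2 fold change 2.98, SE 0.61, adjusted p = 0.1497 by edgeR), Adm at 2.17, 12.7, 62.4 and 33.3 CPM and Bnip3l at 584, 654, 369 and 401 CPM. With each library left out the log2 fold change of Aldoc ran from 2.34 to 4.66 and that of Adm from 1.88 to 4.20, both largest without Flox control 2. Oligodendrocyte clusters held different libraries. Cluster 12 had 0 and 7 cells in the controls and 763 and 1355 in the cKO libraries, and cluster 13 had 455, 1062, 208 and 286. Within cluster 13 Aldoc stood at 3.33, 19.2, 49.2 and 38.1 CPM and within cluster 16 at 0, 11.9, 7.10 and 11.9 CPM, so the cKO libraries were higher in the former and overlapped with the controls in the latter. Astrocyte markers in oligodendrocytes summed to 102, 197, 148 and 246 CPM, with 1 of 8 higher in both cKO libraries. Oligodendrocyte markers summed to 85209, 76315, 38661 and 55679 CPM, lower in both cKO libraries. The part of these lists in the levels of Aldoc, Adm and Bnip3l was not tested.

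Some members lay on the same side in many classes. P4ha1 was lower in both cKO libraries in 9 of the 14 classes where it reached 5 CPM and higher in 1, and Flox control 1 was its highest library in 10 of the 14. Tpi1 was lower in 8 of 14, Pgam1 in 8 of 14 and Aldoa in 7 of 14, and Flox control 1 was highest for Aldoa in 12 classes. On the other side Pfkp was higher in both cKO libraries in 8 of 13 classes, Aldoc in 7 of 10, Slc2a3 in 7 of 11 and Epas1 in 6 of 14. Of the 28 members at 5 CPM in at least 10 classes, these 4 were higher and those 4 lower in at least 6 classes, against 19.3% and 12% of 8471 genes on the same unscaled CPM, so the share higher was under the background and the share lower close to it. Classes of a library share its tissue and handling and are not independent. Beside Aldoc, astrocyte markers summed to 149.8, 137, 144 and 173 CPM in microglia and 8.96, 33.4, 39.6 and 72.2 CPM in monocyte-macrophages, and their part in its level there was not tested.

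The wider pathway was read from 69 further genes of glycolysis, the pentose phosphate branch, hypoxia targets and oxygen sensing, of which 68 were found. In the 11 classes tested 1 of them passed edgeR's test: Ddit4, a hypoxia and stress target that restrains mTOR signalling, stood at 9.63, 4.43, 99.5 and 107 CPM in border macrophages (log2 fold change 4.07, SE 0.36, adjusted p = 0.0182), and the controls were far below the cKO libraries. The call was lost with the replicate block (adjusted p = 0.0826 by edgeR), and without Flox control 2 the log2 fold change was 3.37. The marker sums given for Pfkfb3 are those of this class too, and their part was not tested. In microglia it ran the same way at 9.90, 8.86, 62.7 and 73.3 CPM, short of the threshold (log2 fold change 2.71, SE 0.21, adjusted p = 0.167), and its adjusted p was between 0.000315 and 0.0486 with each library left out in turn. Hif3a, a factor that can oppose the others, stood at 0.151, 0.299, 3.31 and 2.72 CPM in microglia (log2 fold change 3.62, SE 0.44, adjusted p = 0.293 by edgeR). At an unadjusted p under 0.05, 5 of the 60 tested in microglia were higher and 6 lower, in monocyte-macrophages 6 and 7 of 58, and in neutrophils 1 and 2 of 34. Over all genes the shares were 5.13% and 5.46% in microglia, 5.72% and 6.41% in monocyte-macrophages and 3.31% and 3.69% in neutrophils. In monocyte-macrophages the smallest p belonged to Hilpda, a lipid droplet protein induced by hypoxia (104, 141, 298 and 259.6 CPM, log2 fold change 1.03, SE 0.16, adjusted p = 0.327 by edgeR), and Mxi1, a Myc antagonist (66.4, 116, 225 and 208 CPM, log2 fold change 1.11, SE 0.20, adjusted p = 0.338). Both were higher in both cKO libraries, and so was Hilpda in neutrophils (125, 136, 324 and 234 CPM, log2 fold change 1.08, SE 0.36, adjusted p = 0.584). Mif, a secreted cytokine, was lower there (53.2, 72.2, 22.8 and 23.1 CPM, log2 fold change -1.46, SE 0.37, adjusted p = 0.391). Hilpda thus stood on the opposite side from P4ha1 in monocyte-macrophages and from Egln3 and Ankrd37 in neutrophils, and a difference between the genes was not tested.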

How the data were processed

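The data were UMI counts of single cells in 4 libraries, 2 per genotype, with groups taken from the sample titles. The matrices as deposited hold whole UMI counts, not normalized, in 31253 gene rows by barcode. The submitters' processing notes name fastp 0.24.0, STARsolo and mm10. The version of STARsolo, the gene annotation and how barcodes were filtered were not given in the sources used here. Both rows of Aldoa were summed.

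Barcodes were kept with at least 500 UMIs, 250 genes and under 20% mitochondrial UMIs. Doublets called by Scrublet (expected 6%; 1.50 to 2.50% per library) were removed. Cells scaled to 10000 counts were clustered with scanpy 1.11.5 and leidenalg 0.10.2 in Python 3.11.15 (2000 variable genes without the members and other pathway genes, 30 components, 15 neighbours, resolution 1, libraries not integrated). Names were given to clusters by hand, from marker lists, and are not the authors' own.

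UMIs were summed per library and class, in classes with at least 50 cells in every library. The test of genotype was that of edgeR 4.0.16 (quasi-likelihood, TMM, filterByExpr, R 4.3.3), with Benjamini-Hochberg adjustment over all genes tested and a threshold of 0.05; scripts were tested on simulated data. Log2 fold changes are cKO over control, with SE from the F statistic. Alternatives were DESeq2 1.42.0, its size factors, no scaling factor, tests without the low-count filter or with a minimum mean of 50 UMIs, predicted doublets retained, cells restricted to under 10% mitochondrial UMIs or to at least 1000 UMIs, Leiden resolutions of 0.5 and 2, pathway genes allowed in clustering, a replicate block, each library left out, and monocyte-macrophages and microglia without clusters 5 and 7.

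Depth was between 77580518 and 105566650 UMIs per library. Fold changes are given for members with an unadjusted p under 0.05 in microglia, monocyte-macrophages or neutrophils (at most 10 each, by p), for the 6 with the smallest interaction p, and for the 2 other pathway genes with the smallest p per class; exceptions are said in the text. The members and lists were chosen with earlier results of these data known.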

Additional observations from a re-analysis of the deposited data

How the results depend on the processing

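No fold change of a gene named for its p changed direction under an alternative. The median log2 fold change over members in monocyte-macrophages (-0.06) was 0.0919 with no scaling factor, 0.0021 with a minimum mean of 50 UMIs, from -0.0904 to 0.0168 with each library left out (the latter without Flox control 1) and 3.56e-05 at resolution 0.5. The summed enzymes of choroid plexus exceeded those of astrocytes by 25.9 CPM. With each library left out in turn this difference ran from -439 CPM without Flox control 1 to 281 CPM without cKO 1. It was -118 CPM with doublets kept and -15.3 CPM at resolution 2. Other alternatives set the classes further apart than 281 CPM. At resolution 0.5 choroid plexus stood at 3984 CPM and astrocytes at 3508 ± 730 CPM (SD). Under 10% mitochondrial UMIs they stood at 4153 and 3725 CPM. With no replicate block, edgeR called 0 members in microglia, monocyte-macrophages, neutrophils, the other classes and the interaction. DESeq2 called 2, 1, 0, 6 and 5. Without a filter on low counts edgeR called 3 in monocyte-macrophages (4.18% of all genes), 1 in neutrophils (0.915%) and 15 pairs in the other classes (2.38% of all pairs), and in the other classes 1 pair (Pfkfb3 in border macrophages) with doublets kept (0.167% of all pairs) and 1 at Leiden resolution 0.5 (0.0664%). The cause of these differences was not tested. Leaving out each library in turn, the counts ran from 0 to 20 in microglia, 0 to 9 in monocyte-macrophages, 0 to 1 in neutrophils, 0 to 24 in the other classes and 0 to 7 for the interaction, the highest each time without Flox control 2; without Flox control 1 they were 1 in microglia (0.43% of genes) and 5 in the other classes (1.94% of pairs). Members apart between monocyte-macrophages and microglia numbered 13 to 17. Of the other alternative values, 109 counts and sums and 503 values of single genes, medians and differences were unchanged in call or direction, 47 single-gene values newly passed and 15 shares of cells moved with thinning.

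The replicate numbers do not pair the libraries by the labels. The correlation between the control and cKO differences of replicates 1 and 2 over genes was -0.13 in microglia, -0.10 in monocyte-macrophages and 0.26 in neutrophils. With the replicate block 0 members were called in each of these classes and in the others, and Ddit4 in border macrophages had an adjusted p of 0.0826 by edgeR. The interaction has library as its block already. With 2 libraries per genotype, whose controls differed over genes by an SD of 0.86 (log2) in microglia against 0.40 between the cKO libraries, depth was not tested apart from this spread; neutrophils rested on as few as 160 cells in a library. No scaling factor and leaving out clusters 5 and 7 were alternatives chosen after seeing the data, and neither called a member.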

Other observations

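Other genes of the pathway marked classes as well, given here as levels with no test. Slc2a1, the glucose transporter GLUT1 of the blood-brain barrier, stood at 1531, 836, 1788 and 1979 CPM in endothelial cells, against 159, 41.1, 122 and 101 CPM in astrocytes. Slc2a5, a fructose transporter used as a microglial marker, stood at 66.1, 35.2, 22.1 and 22.998 CPM in microglia, and Flox control 1 was its highest library there. Car12, a membrane carbonic anhydrase, stood at 1264, 1019, 559.8 and 663 CPM in choroid plexus and was at most 13.2 CPM in any library of another class. Plod2, a collagen lysyl hydroxylase, stood at 507, 551, 468 and 406 CPM in fibroblasts. Vegfa, the main endothelial growth factor, was highest in astrocytes (197, 134, 178 and 225 CPM) and overlapped with fibroblasts (99.6, 190.1, 99.4 and 167 CPM). G6pdx, the entry enzyme of the pentose phosphate branch, was highest in neutrophils (84.5, 21.7, 57.5 and 81.6 CPM), with Flox control 2 below the other 3 libraries.

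Hif3a was not confined to microglia. It stood at 13.5, 6.64, 59.7 and 67.2 CPM in astrocytes and 1.92, 2.84, 26.8 and 34.2 CPM in oligodendrocytes, higher in both cKO libraries in each, and Pdk4, a pyruvate dehydrogenase kinase induced by fasting and glucocorticoids, stood at 26.5, 23.7, 77.2 and 163 CPM in oligodendrocytes with the same order. In oligodendrocytes the clusters of the control and cKO libraries differed, as the results give for cluster 12.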
